A study of Sus scrofa with 2 samples.

Results

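Proteases and protease inhibitors were described across the cell types of pig endometrium, the lining of the uterus, in 1 sow with embryo loss (EL) and 1 sow with successful implantation (EIS). The members were all features whose gene symbol begins as the serpins, matrix metalloproteases (MMPs), tissue inhibitors of metalloproteases (TIMPs), ADAMs, ADAMTS and ADAMTS-like genes, cathepsins, cystatins, WFDC, SPINK or SPINT genes do, leaving out CTSD and CTSL. This gave 73 genes of 26881 features. They were 19 serpins, 16 MMPs, 2 TIMPs, 9 ADAMs, 7 ADAMTS and ADAMTS-like genes, 6 cathepsins, 3 cystatins, 4 WFDC, 5 SPINK and 2 SPINT genes. Both sows were Yorkshire and 3 years old. The EL sow had aborted earlier and then failed 3 inseminations in a row, and no gestation day is given for her tissue. The EIS sow was sampled 30 days after an insemination that succeeded. With 1 sow and 1 library a group, differences between animals, pregnancy outcomes, stages and library preparations cannot be told apart. No test across sows is possible, no p-value is given, and every interval is at 95% and covers counting error only.

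Proteases cut other proteins, and most of them are held in check by inhibitors made in the same tissue. MMPs, ADAMs and ADAMTS enzymes act at the cell surface and in the extracellular matrix and are blocked by TIMPs, cathepsins work mainly in lysosomes and are blocked by cystatins, and many serine proteases are blocked by serpins and by Kunitz, Kazal and WAP domain inhibitors. In the pig the conceptus attaches to an intact uterine epithelium and does not invade it, and the uterine glands secrete protease inhibitors together with the iron-binding protein uteroferrin.

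The EL library held 10936 barcodes and 43302286 unique molecular identifiers (UMIs, the counts of captured transcripts), and the EIS library 8848 barcodes and 36069473 UMIs. Barcodes with at least 500 UMIs and 300 features were kept, 10797 in EL with a median of 2301 UMIs and 8669 in EIS with a median of 2245, and 27 barcode sequences occurred in both libraries. Cells were gated by marker genes, which placed 6349 EL and 912 EIS cells as epithelial, 944 and 141 as ciliated, 144 and 174 as T or NK, 55 and 221 as macrophage, and 55 and 1584 as stromal cells. Endothelial cells numbered 38 and 213, and trophoblast, the outer layer of the conceptus, 0 and 589. Contractile cells numbered 0 and 11, neutrophils 9 and 46, and B or plasma cells 17 and 23. The other 29.5% of EL and 54.9% of EIS cells met no gate, among them barcodes with markers of several classes. Of 12 listed epithelial markers 5 carried a symbol. The ciliated gate rested on 3 markers. Levels are UMI counts scaled to a common total per cell type (CPM) and were compared within a gene, between cell types or libraries. A ratio is the log2 of EL over EIS minus that of the median measured feature, where measured means at least 20 UMIs over both libraries in the cell type. A member is counted as higher in 1 library where this ratio passes 2-fold. The median feature stood 1.00 (log2) higher in EL in epithelial cells, 0.54 in stromal cells and 0.05 to 0.09 in the other cell types compared.

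Members took 0.229% of the UMIs of kept EL cells and 2.19% of those of EIS cells. Most of the EIS share was TIMP2, without which the shares were 0.218% and 0.527%. Of the 73 members, 60 were detected in EL and 63 in EIS, and 6 had 0 UMIs in both. A level of at least 50 CPM on at least 30 UMIs in some cell type was reached by 28 members and missed by 45, of which 21 had under 30 UMIs over both libraries. Those 28 were 7 of 16 MMPs, 5 of 19 serpins, 5 of 6 cathepsins, 2 of 9 ADAMs, 2 of 7 ADAMTS and ADAMTS-like genes, 2 of 3 cystatins, 1 of 4 WFDC genes, both TIMPs and both SPINT genes. No SPINK gene reached it. The cell type of highest level was in EIS for 24 of the 28: trophoblast for 7, endothelial for 7, stromal for 5, macrophage for 3 and epithelial for 2. In EL it was stromal for 2, epithelial for 1 and T or NK for 1. These counts depend on the minimum of 30 UMIs and on depth. The EL stromal, endothelial and macrophage gates held 102612 to 165918 UMIs, and EL had no trophoblast gate. For some members, among them ADAM10, SERPING1, ADAMTS9 and CTSF, an EL level on fewer than 30 UMIs was higher than the level counted.

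**Figure D1:**
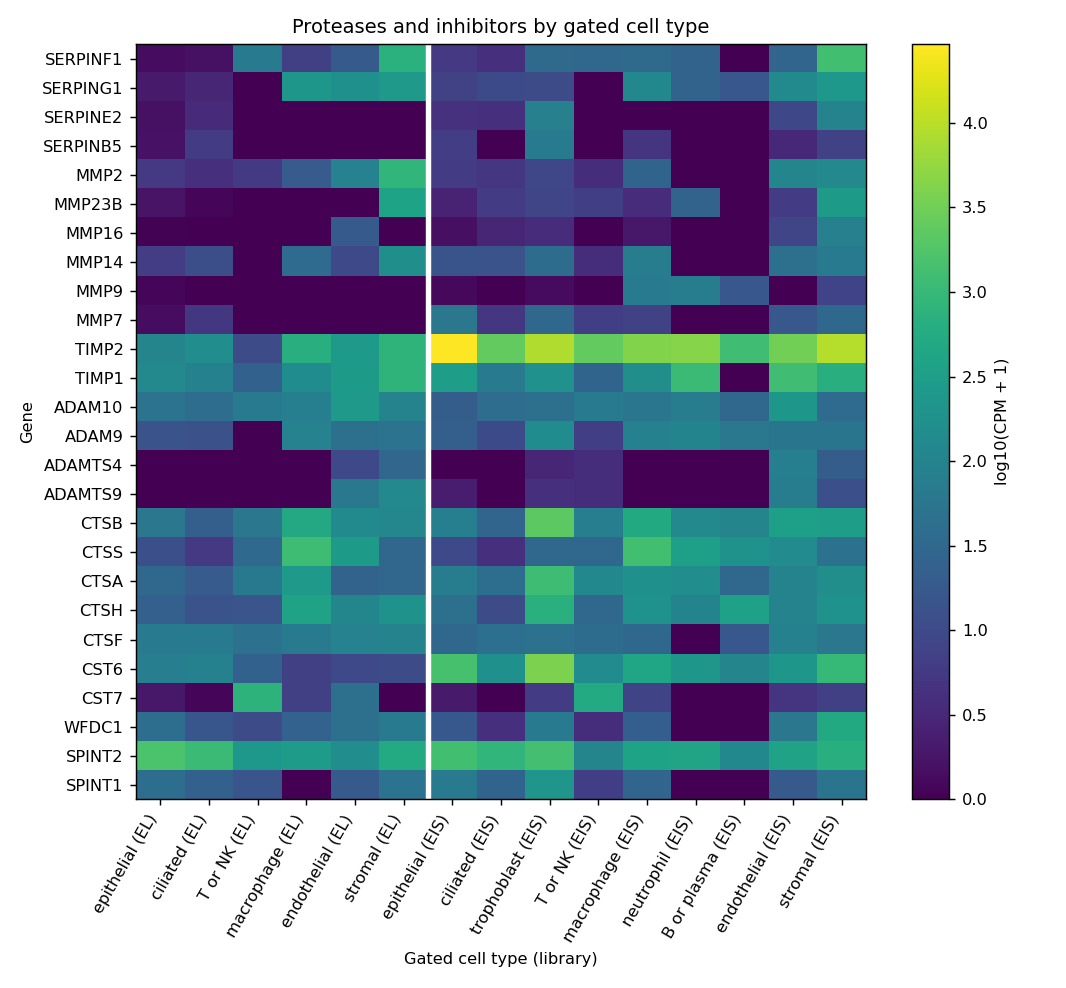
Level of each of 26 members that the naming rule picked (rows) in each gated cell type of at least 20 cells (columns, EL left and EIS right of the white line), as log10 of CPM plus 1. TIMP2 is the brightest row in EIS, CTSS is bright in macrophages of both libraries, CST7 in T or NK cells of both, and SERPINF1, MMP2 and MMP23B in stromal cells of both.

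TIMP2, a secreted inhibitor of MMPs that also takes part in the activation of MMP2, differed most between the libraries in epithelial cells. Its level there was 105 CPM (101 to 109) in EL and 29299 CPM (29181 to 29418) in EIS. The EIS level was 559.7 times the EL level relative to the median feature, a ratio of −9.13 (−9.18 to −9.08). The uteroferrin gene ACP5 stood at 15.0 CPM in EL and 71294 in EIS epithelial cells beside it. Within EL the epithelium was not the highest cell type for TIMP2, with 809 CPM in stromal cells, 621 in macrophages, 250 in endothelial cells and 155 in ciliated cells against 105 in epithelial and 9.51 in T or NK cells.

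Every cell type of EIS carried TIMP2, from 1233 CPM in B or plasma cells to 9496 in stromal cells outside the epithelium. These levels were set beside those of ACP5, which encodes uteroferrin, and UABP-2, a basic protein bound to it, both secretory products of the glands. In T or NK cells TIMP2 stood at 8.56% of its epithelial level, against 6.34% to 6.95% for the 2 secretory genes. In stromal cells it stood at 32.4% against 30.5% to 32.9%, and in trophoblast at 29.7% against 29.8% to 30.7%. In macrophages it stood at 14.3% against 11.2% to 12.7%. In B or plasma cells it stood at 4.21% against 2.11% to 2.78%. TIMP2 thus lay in or next to the range of the gland products in stromal, endothelial and trophoblast cells and above it in the other EIS cell types. Free RNA from the glands and RNA of the cells themselves cannot be told apart there. The EL over EIS ratios of TIMP2 in ciliated (−4.03), T or NK (−8.13), macrophage (−2.80) and stromal cells (−4.09) carry the same limit.

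**Figure D2:**
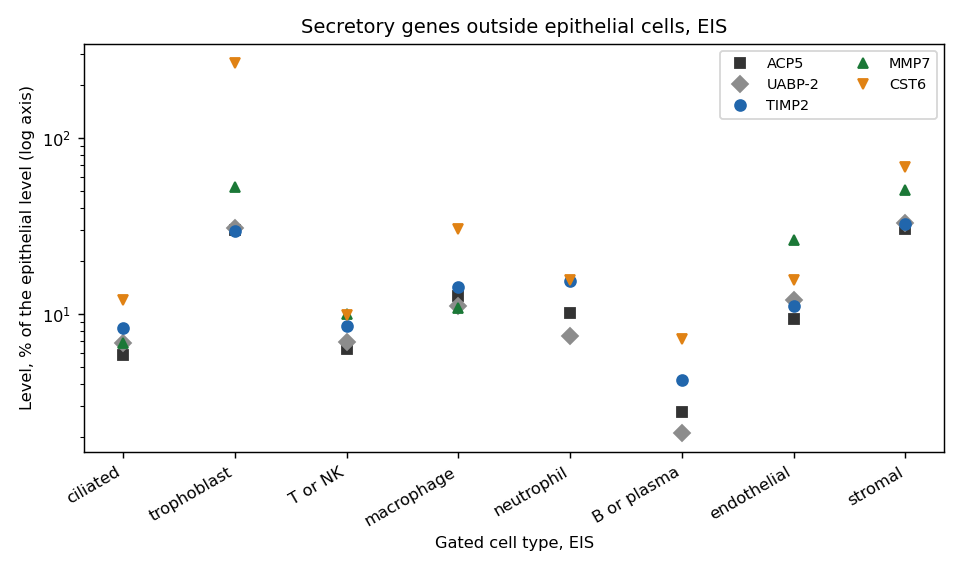
Level of the gland products ACP5 and UABP-2 and of the members TIMP2, CST6 and MMP7 in each non-epithelial EIS cell type, in percent of the level in EIS epithelial cells (log axis, 1 point per gene and cell type). TIMP2 lies beside ACP5 and UABP-2 in endothelial, stromal and trophoblast cells, while CST6 in trophoblast lies at 267%. MMP7 had 0 UMIs in neutrophils and in B or plasma cells and is not drawn there.

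TIMP1, the other inhibitor of MMPs, had its highest level in EIS endothelial cells, at 1233 CPM (1174 to 1294), against 267 CPM on 31 UMIs (181 to 379) in the 38 EL endothelial cells. Endothelial cells of the libraries were not compared as a group because EL had fewer than 50. In epithelial cells TIMP1 stood at 127 CPM in EL and 320.2 in EIS, a ratio of −2.34 (−2.41 to −2.27). In stromal cells it stood at 799 CPM in EL and 645 in EIS, a ratio of −0.23 (−0.56 to 0.08), whose interval spans 0. Whether the ratio differed between epithelium and stroma was not tested.

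Among the MMPs, MMP7 (matrilysin, a small enzyme made by epithelia) was the 1 of the 7 above the minimum level that was highest in the epithelium. It stood at 0.39 CPM on 12 UMIs in EL epithelial cells and at 58.1 CPM on 465 UMIs in EIS, a ratio of −8.21 (−9.18 to −7.40), or −6.34 with a gate on 3 markers. In ciliated cells it was close in the libraries, with 4.28 CPM on 28 UMIs in EL and 4.00 CPM on 4 UMIs in EIS. MMP11 went the other way, at 27.2 CPM in EL and 8.36 in EIS epithelial cells, a ratio of 0.70 (0.34 to 1.08) that is under 2-fold.

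The gelatinase MMP2 and MMP23B (a membrane-bound member) had their highest levels in EL stromal cells. MMP2 stood at 858 CPM on 88 UMIs (688 to 1057) there and at 124 CPM on 692 UMIs in EIS stromal cells, a ratio of 2.25 (1.91 to 2.57). MMP23B stood at 389.8 CPM on 40 UMIs in EL and 272 CPM on 1512 UMIs in EIS, a ratio of −0.02 (−0.51 to 0.43). The membrane-type enzyme MMP16 had 0 UMIs in EL stromal cells and 488 in EIS (87.7 CPM), so it was at least 4.36-fold higher in EIS against a floor of 3 UMIs. With cells weighted equally this bound shrank from −2.13 to −1.13 (log2). In EIS endothelial cells MMP2 stood at 113 CPM on 149 UMIs, close to its stromal level. The EL stromal values rest on 55 cells with 102612 UMIs in all.

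MMP9, a gelatinase of myeloid cells, had 76 UMIs (68.6 CPM) in EIS macrophages and 0 in EL macrophages, at least 3.94-fold higher in EIS. The 55 EL macrophages held 165918 UMIs, so this floor of 3 UMIs is a coarse limit, and the ratio was −0.65 when cells were weighted equally. MMP14, a membrane-type enzyme that activates MMP2, stood at 36.2 CPM on 6 UMIs in EL macrophages and 77.7 CPM on 86 UMIs in EIS. Its ratio of −1.16 (−2.64 to 0.02) has an interval that spans 0.

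Of the ADAMs, the membrane sheddases ADAM10 and ADAM9 (ADAM10 cuts Notch among others) reached the minimum level. ADAM10 was highest in endothelial cells in both libraries, at 249.7 CPM on 29 UMIs in EL and 226 CPM on 298 UMIs in EIS, about 5.00 and 5.20 times the level over all kept cells. ADAM9 was highest in EIS trophoblast at 147 CPM (134 to 162), and stood at 96.4 CPM in macrophages of EL and 89.4 in those of EIS. In epithelial cells ADAM9 stood at 12.9 (EL) and 21.1 CPM (EIS), a ratio of −1.71 (−1.98 to −1.44).

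The secreted proteoglycan-cutting enzymes ADAMTS4 and ADAMTS9 were genes of endothelium and stroma. In EIS endothelial cells ADAMTS4 stood at 84.3 CPM and ADAMTS9 at 76.7 CPM, 11.4 and 10.1 times their level over all kept cells. In stromal cells ADAMTS9 stood at 127 CPM on 13 UMIs in EL and 11.3 CPM on 63 UMIs in EIS, a ratio of 2.94 (1.96 to 3.82). In epithelial cells the libraries held 1 and 10 UMIs of it.

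Of the 5 cathepsins above the minimum level, 3 were highest in EIS trophoblast, CTSS in EIS macrophages and CTSF, a cysteine protease, in EIS endothelial cells, at 91.9 CPM. In EIS trophoblast the cysteine protease CTSB stood at 2195 CPM (2142 to 2249), the carboxypeptidase CTSA at 1205 (1165 to 1245) and the aminopeptidase CTSH at 693 (663 to 724). These levels were 4.31, 3.95 and 3.41 times those over all EIS cells, and the EL library held no trophoblast gate to set beside them. CTSS, a cysteine protease used in antigen presentation, stood in macrophages at 1205 CPM on 200 UMIs in EL and 1309.7 CPM on 1450 UMIs in EIS.

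In macrophages 3 of the 5 measured cathepsins had intervals that span 0 and ratios under 2-fold. CTSS had a ratio of −0.17 (−0.39 to 0.04), CTSB of −0.10 (−0.45 to 0.23) and CTSA of 0.50 (−0.02 to 0.98). CTSH stood at 379.7 CPM in EL and 189.7 in EIS macrophages, a ratio of 0.95 (0.52 to 1.36) that excludes 0. CTSF passed 2-fold toward EL on 11 and 35 UMIs, at 1.01 (−0.11 to 2.03), with an interval that spans 0.

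In epithelial cells all 6 cathepsins were measured, and 3 were higher in EIS and 0 in EL, where 17.1% and 15.1% of all features measured there were. CTSA stood at 30.1 CPM in EL and 73.7 in EIS, a ratio of −2.30 (−2.45 to −2.14). CTSH had a ratio of −1.93 and CTSB of −1.53, while CTSS (−0.62), CTSO (−0.79) and CTSF (0.25) stayed under 2-fold. These calls rest on the scaling: without centring CTSA was at −1.29, CTSH at −0.93 and CTSB at −0.53, and CTSF, at 71.0 CPM in EL and 29.8 in EIS, was past 2-fold toward EL at 1.25. CTSA also had ratios past 2-fold toward EIS in ciliated (−1.22), T or NK (−1.07) and stromal cells (−2.98, on 3 EL UMIs).

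CST6 (cystatin E/M), which blocks legumain and cathepsins, was highest in EIS trophoblast at 3907 CPM (3836 to 3979), above the 1462 CPM of EIS epithelial cells. EL epithelial cells held 80.3 CPM, a ratio of −5.19 (−5.25 to −5.13). In EIS stromal cells CST6 stood at 995 CPM, 68.1% of the epithelial level where the gland products stood at 30.5% to 32.9%. Markers of trophoblast in those stromal cells summed to 2043 CPM against 9.75 in EL stromal cells, and their part in the CST6 value was not tested. In T or NK cells it stood at 9.89% against 6.34% to 6.95%.

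CST7 (cystatin F), the cystatin of cytotoxic leukocytes, had its highest level in T or NK cells in both libraries. It stood at 775 CPM on 163 UMIs (661 to 904) in EL and 538 CPM on 186 UMIs in EIS, 102 and 32.8 times the level over all kept cells. These cells held 163 of the 326 CST7 UMIs in EL and 186 of 588 in EIS, and ungated cells held 128 and 332. The ratio was 0.44 (0.12 to 0.75), under 2-fold. Summed T or NK markers stood at 4804 CPM in the EL and 3452 in the EIS gate.

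The serpins divided by cell type. SERPINF1 (pigment epithelium-derived factor, a serpin with no known protease target) was a stromal gene in both libraries, with 711 CPM on 73 UMIs in EL and 1323 CPM on 7360 UMIs in EIS. Its ratio of −1.44 (−1.79 to −1.10) fell under 2-fold, to −0.22, when cells were weighted equally and to −0.67 without the 5% of barcodes with the most UMIs. SERPING1 (the C1 inhibitor of complement) stood at 253 CPM in EL and 237 in EIS stromal cells, at 229 and 120.1 in macrophages and at 172 and 133 in endothelial cells. SERPINE2 (protease nexin) had 0 UMIs in EL stromal cells and 543 in EIS (97.6 CPM), at least 4.85-fold higher in EIS (a bound of −2.28 on the log2 scale, and −1.24 with cells weighted equally), and SERPINB5 (maspin) was highest in EIS trophoblast at 65.5 CPM.

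Serpins with other symbols would lie outside the symbol rule and were not counted here. Of 10 serpins measured in epithelial cells, 9 were higher in EIS, where 17.1% of all features were. Among these SERPINB8, SERPING1, SERPINB5, SERPINF1, SERPINE2, SERPINI2, SERPINF2 and SERPINA7 stood at 0.749 to 9.99 CPM in EIS. SERPINI1 (neuroserpin) was higher in EL, at 32.6 CPM on 999 UMIs in EL and 8.11 CPM on 65 UMIs in EIS, a ratio of 1.00 (0.64 to 1.39) that lies at the 2-fold limit. SERPINF1, at 4.62 CPM in EIS epithelial cells, stood at 0.018 times its level over all kept EIS cells. With 10% of each total removed as free RNA, all epithelial members higher in EIS numbered 19, against 26 before. Markers of stroma in the epithelial gate summed to 137 CPM for EL and 166 for EIS. Markers of trophoblast summed to 1.60 and 234 CPM, and the part of free RNA and of these markers in the low serpin levels was not tested.

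SPINT2 and SPINT1 are Kunitz inhibitors that restrain matriptase at the surface of epithelia. SPINT2 was highest in EL epithelial cells at 1569.5 CPM (1556 to 1584), with 1280.1 CPM in EIS epithelial cells. The ratio was −0.71 (−0.74 to −0.68) relative to the median feature, and 0.29 without centring, so its direction rests on the scaling. SPINT1 was highest in EIS trophoblast at 209 CPM, and in epithelial cells it stood at 40.3 CPM in EL and 72.3 in EIS, a ratio of −1.85 (−1.99 to −1.70), or −0.84 without centring. SPINT2 in trophoblast, at 1343 CPM, was 105% of its level in EIS epithelial cells.

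WFDC1, a WAP domain protein of smooth muscle and stroma, was highest in EIS stromal cells at 517 CPM on 2876 UMIs, with 68.2 CPM on 7 UMIs in EL. The stromal ratio was −3.46 (−4.78 to −2.42), and −1.12 when cells were weighted equally. Markers of contractile cells in the stromal gate summed to 224 (EL) and 3448 CPM (EIS), and their part in this result was not tested. In epithelial cells WFDC1 stood at 40.0 CPM in EL and 15.9 in EIS, a ratio of 0.33 (0.07 to 0.61). In ciliated cells the ratio was 2.23 (0.64 to 4.54), on 96 and 3 UMIs.

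SPINK2, a Kazal inhibitor best known from the testis, was a gene of the EL epithelium. It had 1310 UMIs in EL and 2 in EIS, and the EL epithelial level was 38.5 CPM on 1181 UMIs against 0 UMIs in EIS. It was at least 51.3-fold higher in EL against a floor of 3 UMIs, relative to the median feature. In ciliated cells it had 59 UMIs (9.01 CPM) in EL and 0 in EIS, at least 2.89-fold higher. SPINK2 lies under the level of 50 CPM used to name genes and was singled out after its values were seen, as were SERPINI1 and other genes named below that level.

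**Figure D3:**
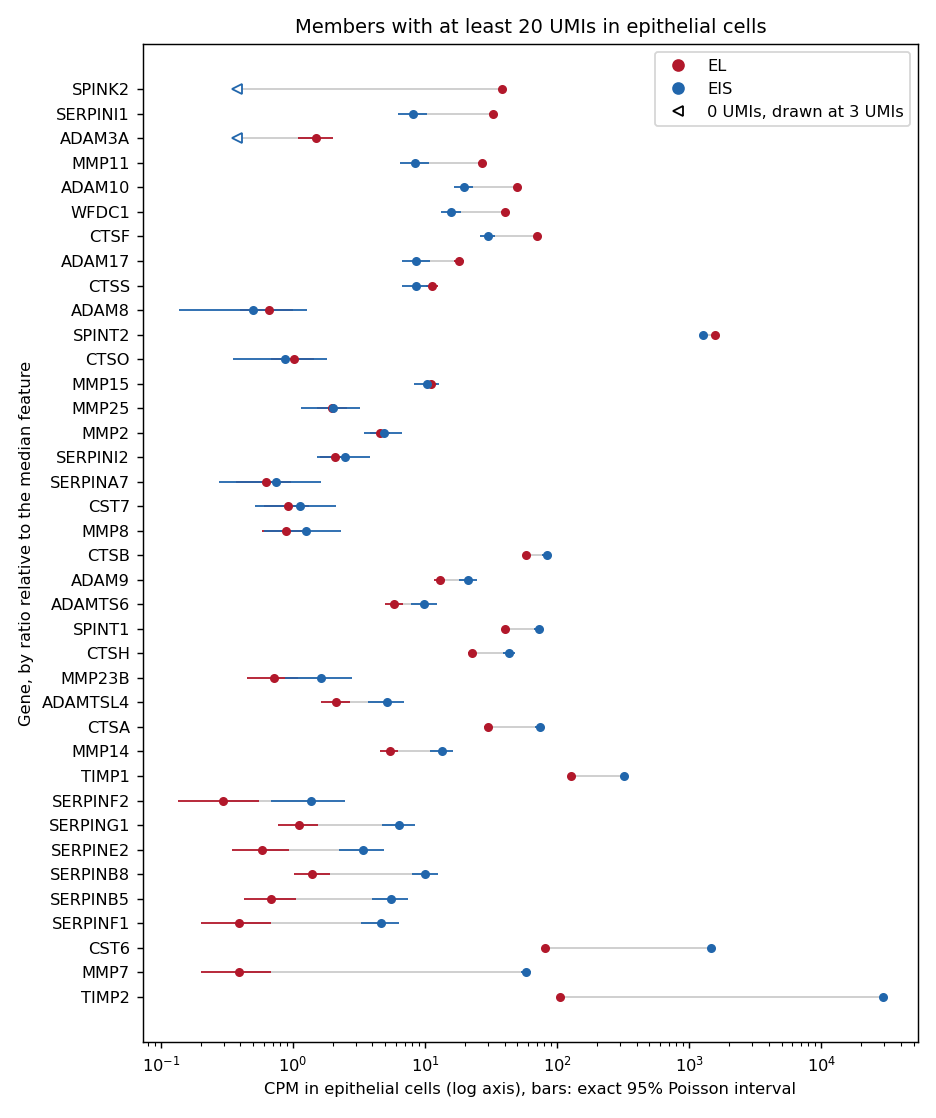
CPM in EL (red) and EIS (blue) epithelial cells for 38 of the 39 members with at least 20 UMIs there, ordered by ratio relative to the median feature, on a log axis with exact 95% Poisson intervals as bars. Open triangles mark 0 UMIs, drawn at the level of 3 UMIs. TIMP2, MMP7 and CST6 at the bottom and SPINK2 at the top are the widest pairs.

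Members past 2-fold were most numerous in the epithelium, the cell type with the most UMIs. Of 39 members measured there 26 were higher in EIS and 3 in EL (SPINK2, SERPINI1 and ADAM3A), where 17.1% of all 14981 measured features were higher in EIS and 15.1% in EL. The median member had a ratio of −1.51, where the median feature is 0 by construction. Without centring, 14 members were higher in EIS and 8 in EL, where 7.08% and 50.2% of features were, and the median was −0.50. With centring, the other proteases and inhibitors of a list outside the symbol rule also leaned to EIS. Of 27 measured, 15 were higher in EIS and 2 in EL, with a median of −1.07. That median is close in size to the 1.00 subtracted as the median feature, so most of its size rests on the scaling. The list was chosen with earlier results of these data known.

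In that list the WAP inhibitor SLPI stood in epithelial cells at 129 CPM for EL and 272958 for EIS, a ratio of −12.05. The dipeptidyl peptidase DPP4 had a ratio of −8.49 and matriptase (ST14), the target of the SPINT inhibitors, of −3.66. FURIN (−1.49) and PRSS23 (−1.07) also passed 2-fold toward EIS, while the calpains CAPN1 (−0.48) and CAPN2 (0.80) did not pass it. The membrane peptidase MME went toward EL at 2.70, with 297 CPM in EL and 22.8 in EIS. ST14 itself stood at 43.7 CPM in EL and 276 in EIS epithelial cells.

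**Figure D4:**
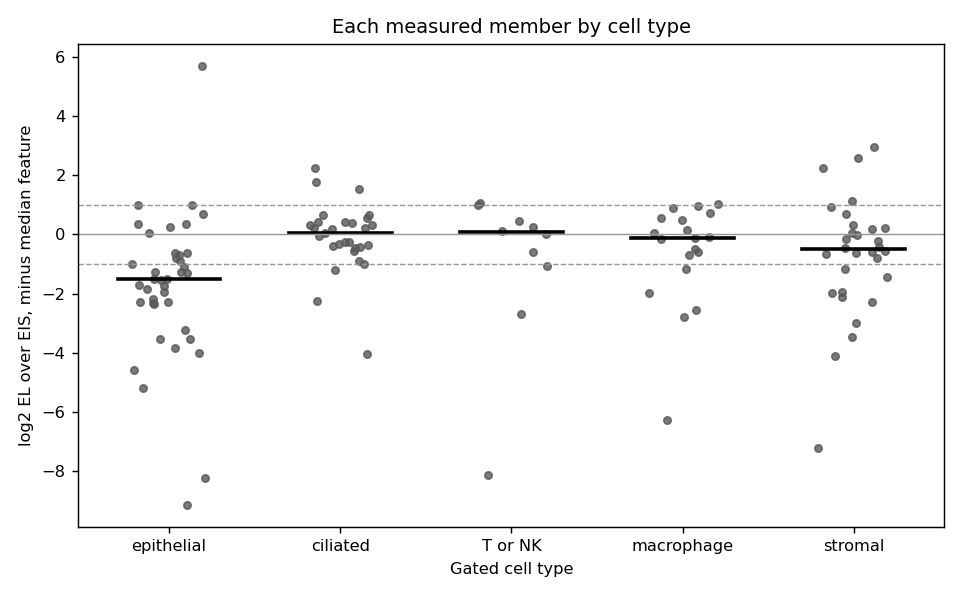
Log2 ratio of EL over EIS relative to the median feature for each measured member (points) in the 5 cell types compared, with the median of the members as a bar and 2-fold as dashed lines. The epithelial bar lies at −1.51 and the others between −0.51 and 0.07. Bounds from 0 UMIs are drawn at their bound, and 7 stromal members without a ratio are left out.

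In stromal cells 37 members were measured, of which 10 were higher in EIS and 4 in EL, where 12.7% and 12.1% of 11684 features were. Those higher in EL included ADAMTS9, MMP2 and MMP19 (1.12, on 7 and 120 UMIs, with an interval of −0.22 to 2.21). The median was −0.51, and 7 of the 37 had 0 EL UMIs and too few in EIS for a ratio. The EIS members included CST6 (−7.21, on 1 EL UMI), TIMP2, WFDC1, CTSA, SERPINE2, MMP16, CTSB and SERPINF1. Because EIS stromal cells carried RNA of other classes, the counts were repeated with a gate that asked for class markers above 2 times their share in the library, chosen after seeing the data. It kept 609 EIS stromal cells, and MMP2 had a ratio of 1.71, TIMP2 of −2.99 and WFDC1 of −3.99 under it, while SPINT1 (−0.61 before) turned to 1.01 and SPINT2 (−0.81 before) to 0.59.

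The remaining cell types held few members past 2-fold. In ciliated cells 3 of 29 members were higher in EIS (TIMP2, SERPING1 and CTSA) and 3 in EL (WFDC1, SERPINI1 and SPINK2), where 5.17% and 8.18% of 11791 features were. SPINT2 stood at 1109.5 CPM in EL ciliated cells and at 854 in EIS, a ratio of 0.32 (0.22 to 0.43). CTSF had a ratio of 0.65 there. TIMP1 had a ratio of 0.42, which turned to −0.08 with the gate on marker UMI share and to 1.57 with 10% of each total removed as free RNA. SERPINI2, which lies near SERPINI1 in the genome, was highest in ciliated cells in both libraries, at 16.3 CPM on 107 UMIs in EL and 29.0 CPM on 29 UMIs in EIS.

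In macrophages 5 of 19 members were higher in EIS (CST6, TIMP2, SERPINF1, MMP9 and MMP14) and 1 in EL (CTSF), where 12.1% and 6.76% of 6934 features were. In T or NK cells 3 of 10 were higher in EIS (TIMP2, CST6 and CTSA) and 1 in EL (SPINT2, at 1.06), where 5.74% and 6.05% of 4199 features were. SPINT2 in EL T or NK cells stood at 15.2% of its epithelial level, where the EL epithelial genes CCK, JPH4, PON3 and AQP3 stood at 12.4% to 20.0%, and with TMM factors no member was higher in EL. TIMP2 and CST6 had the largest ratios toward EIS in these gates, and CST6 in EIS macrophages stood at 30.5% of its epithelial level against 11.2% to 12.7% for the gland products. Markers of stroma summed to 24.1 CPM in EL and 375 in EIS macrophages, beside the SERPINF1 value, and their part in it was not tested.

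The EL epithelium was split by leading genes into a CYP26A1 set of 1059 cells, a PON3 and CLDN10 set of 408, a JPH4 and JAKMIP1 set of 874 and a CCK, AQP3 and OPTC set of 2796, with 1210 cells outside these sets. A further set led by ACP5 and UABP-2 took 2 EL cells and all 912 EIS epithelial cells. All epithelial ratios of EL over EIS given here thus compare cells that this split places in different sets. RNA of ACP5 and UABP-2 was found in every EIS cell type, and its part in this placing was not tested. Of 32 members with at least 20 UMIs over the 4 sets, 8 were higher in the CYP26A1 set than in each of the others and 7 lower, with Poisson intervals that did not overlap, where 12.4% and 34.4% of 14071 features were. The other 17 met neither. In the CYP26A1 set SPINK2 stood at 92.2 CPM against 0 to 11.0 in the other 3 sets. CST6 stood at 169 CPM against 21.5 to 25.0, TIMP2 at 183 against 45.4 to 52.4, ADAM9 at 25.2 against 2.96 to 5.71 and CTSB at 89.6 against 36.7 to 49.9. The rest of the 8 were CTSA, CTSS and SPINT2, and the genes given with values were picked after these were seen. Among the 7 lower members were SERPINI1, at 4.48 CPM against 40.6 to 56.1, WFDC1 at 13.2 against 51.3 to 63.1, MMP11 at 12.2 against 34.8 to 47.7 and CTSH at 14.4 against 24.1 to 45.4.

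Cells of the CYP26A1 set had a median of 10205 UMIs against 2445 to 4224 in the other 3 sets, and 3 mast cell markers summed to 1055 CPM there against 318 to 378. The part of depth and of these markers in the pattern was not tested. Even at 183 CPM, TIMP2 in this set was far under the 29299 CPM of EIS epithelial cells. Without the CYP26A1 set, the epithelial ratio of TIMP2 was −10.06 and that of CST6 −6.77.

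**Figure D5:**
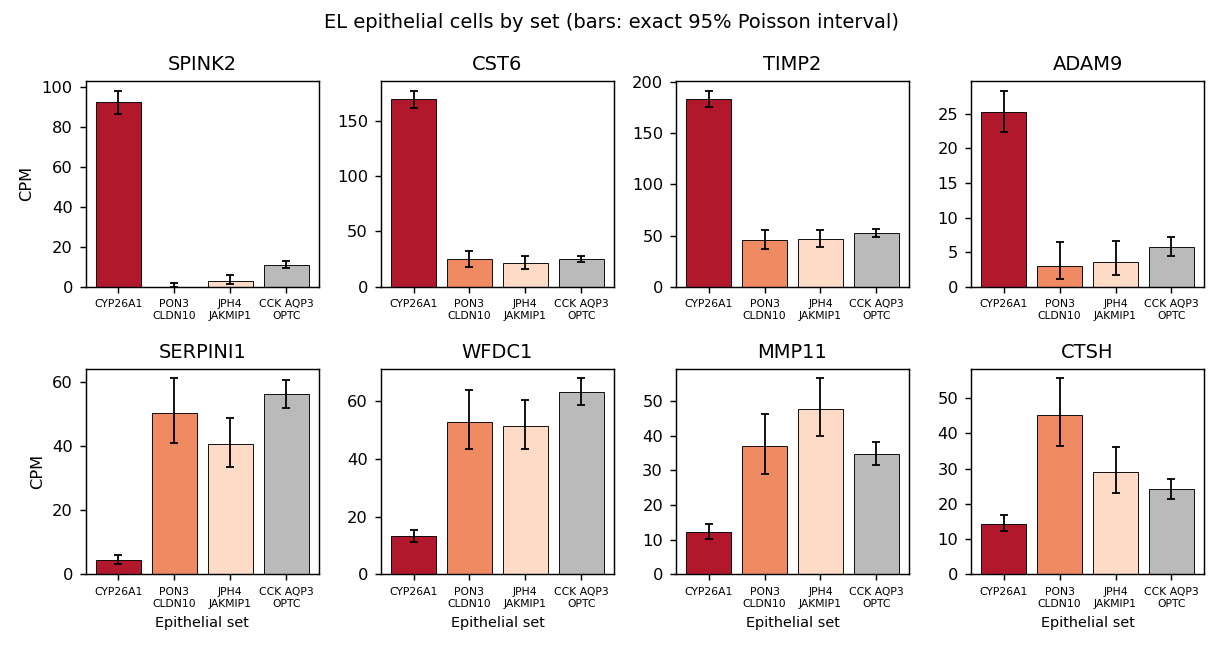
CPM of 8 members in 4 sets of EL epithelial cells (bars from 0, error bars exact 95% Poisson intervals). SPINK2, CST6, TIMP2 and ADAM9 in the top row are highest in the CYP26A1 set, and SERPINI1, WFDC1, MMP11 and CTSH in the bottom row are lowest there.

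Some members lie side by side in the genome, which the symbol rule did not use. Of the 73 members, 67 matched a gene of the RefSeq annotation of Sscrofa11.1 by symbol, used here only for the order of genes. A run of 7 SERPINB genes and a run of 7 MMPs were found, with at most 3 other genes between neighbours. Within the MMP run MMP7 held 40 UMIs in EL and 1647 in EIS, MMP8 37 and 149, and MMP13 1 and 68, while MMP20, MMP27, MMP1 and MMP12 held 0 to 8 UMIs in each library. Within the SERPINB run SERPINB5 held 55 and 576 UMIs and SERPINB7 6 and 96, and SERPINB13 held 0 in both. SERPINI2 and SERPINI1, with 2 genes between them, both had more UMIs in EL (187 against 77, and 1298 against 345). SERPINF2 and SERPINF1, with 1 gene between them, both had more in EIS (15 against 39, and 117 against 9325). These are sums over all kept cells, and the libraries differ in their cell types. Within ciliated cells SERPINI2 had the higher level in EIS, and within epithelial cells its ratio passed 2-fold toward EIS. Members of these runs are close paralogs, and the counting rule for reads that fit more than 1 of them is not given in the sources used here.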

How the data were processed

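Endometrial cells of both sows were run on the 10x Genomics 3' assay after enzymatic digestion, filtration and red cell lysis, per the labels' protocols. Values are raw UMI counts per feature and barcode as deposited by the authors, not normalized. Cell Ranger 2.1.1 is named in the submitters' processing notes and cellranger 6.1.0 in the matrices, per the file headers. No genome build or annotation is given in the sources used here. There were 16128 features without a gene symbol, with 26.7% of the UMIs of kept cells in EL and 23.0% in EIS, and members among them would be missed.

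Cells were gated on at least 2 distinct markers of a class (3 for ciliated cells and trophoblast) and at least 2 more than of any other class, except that epithelial markers may accompany those of ciliated cells or trophoblast and stromal markers those of contractile cells. No doublet caller was run. Barcodes with markers of several classes stayed ungated only where no class met these rules, so gated cells may hold mixtures. In EIS stromal cells trophoblast markers summed to 2043 CPM and epithelial markers to 1269. In EIS trophoblast stromal markers summed to 1328 CPM. Whether mixed barcodes or free RNA gave these values was not tested. UMIs were summed per library and cell type. Levels were given with at least 20 cells and compared with at least 50 cells in both libraries. Levels have exact Poisson intervals and ratios exact conditional intervals. A count of 0 was set to a floor of 3 UMIs per library and cell type. EL epithelial cells entered a set with at least 2 UMIs of its leading genes.

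The members and lists, among them the list of 37 further proteases and inhibitors found in the features (of 68 written), were chosen with earlier results of these data known. Named genes were, per family, up to 6 members of highest level with at least 50 CPM and 30 UMIs, and per cell type up to 8 ratios in each direction with the same minimums and a level of at least 0.5 of the whole library, plus 8 genes of the further list. Genes in counts of 5 or fewer were also named, after their values were seen. Counts include 1 member whose own result is not reported here. The alternatives were stricter gates, other minimums, other scalings, equal weight for cells, removal of free RNA at 10% of each total, and 2 added after seeing the data. The ratio computation was tested on simulated counts. The software was scipy 1.17.1, numpy 2.4.6, pandas 2.3.3 and matplotlib 3.10.9 under Python 3.11.15.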

Additional observations from a re-analysis of the deposited data

Results flagged for a closer look

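For 2 members named here the ratio of EL over EIS passed 2-fold in opposite directions in 2 cell types of the same libraries. MMP2 was higher in EL in stromal cells (2.25) and higher in EIS in epithelial cells (−1.09), a difference of 3.34 on the log2 scale. The epithelial levels of MMP2 were 4.57 CPM in EL and 4.87 in EIS, so they lie close before centring on the median feature. WFDC1 was higher in EL in ciliated cells (2.23, on 3 EIS UMIs) and higher in EIS in stromal cells (−3.46, on 7 EL UMIs), a difference of 5.69. With 1 sow in each group none of these differences was tested.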

How the results depend on the processing

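No median and no ratio of a gene picked by the naming rule changed direction where it was past 2-fold and could still be formed. The macrophage bound of MMP9 toward EIS was lost without the 5% of barcodes with the most UMIs, and that case was not counted. The single ratios of other members were not checked for this. Of 165 counts and medians under an alternative, 141 stayed near the value reported. For counts this means within 1.5 times, and for medians between the median lower and median upper counting bound of the members. Those bounds were wide in stromal cells, at −2.95 to 0.63. The gate on class markers above 2 times their library share was not applied to epithelial cells, and it left the T or NK and macrophage cells as they were. The unchanged values of these 3 cell types are among the 141. No paired analysis was possible because each group has 1 library, and the numbers in the titles name sows and no pairs. Shares of all measured features past 2-fold in the same direction are given in brackets. Without centring on the median feature, 14 of 39 epithelial members were higher in EIS (7.08%) and 8 in EL (50.2%), with a median of −0.50. In EL, 2 of 10 T or NK (7.24%) and 2 of 19 macrophage members (7.89%) were higher. With 10% of each total removed as free RNA the epithelial median was −1.02, and 19 of 39 epithelial members were higher in EIS (16.9%). Of 29 ciliated members 9 were higher in EL (9.05%) and 1 in EIS (5.18%). Of 10 T or NK members 2 were higher in EL (6.83%) and 1 in EIS (6.03%). Of 19 macrophage members 4 were higher in EL (8.25%). The gate on marker UMI share gave 6 of 29 ciliated (5.41%) and 16 of 42 stromal members (15.9%) higher in EIS. It gave 0 of 20 macrophage members (6.82%) higher in EL. The gate on 3 markers left 1 of 37 epithelial members higher in EL (13.2%) and could not be run for ciliated cells. With no minimum of UMIs, 12 ciliated members were higher in EIS, 3 T or NK and 2 macrophage members in EL. TMM factors gave 0 of 10 T or NK (4.31%) and 0 of 19 macrophage members (4.30%) higher in EL. Class totals without features over 1% gave 2 of 10 T or NK members higher in EL (6.76%). Macrophage members higher in EL numbered 2 of 19 with at least 1000 features (6.95%). They numbered 2 of 17 without the 5% of barcodes with the most UMIs (6.34%) and 2 of 19 with equal weight for cells (12.4%). The cause of these shifts was not tested.

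Depth limits the EL stromal, macrophage and T or NK values, where 1 to 20 UMIs lie behind many levels. Of 365 single ratios under an alternative, all of genes picked by the naming rule, 96 moved by more than their counting interval. None past 2-fold reversed among these, which leave out the lost macrophage bound of MMP9. With cells weighted equally the stromal bounds of MMP16 and SERPINE2 shrank to −1.13 and −1.24, and the stromal ratio of TIMP1, which is not past 2-fold, turned to 0.78.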

Other observations

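Cell types too few to compare also held members, given here as values of EIS alone and picked after they were seen. In 46 neutrophils TIMP1 stood at 1086 CPM on 43 UMIs, 339% of the level in EIS epithelial cells, where ACP5 and UABP-2 stood at 7.55% to 10.1%. In 23 B or plasma cells CTSH stood at 361 CPM on 24 UMIs, CTSS at 196 CPM on 13 and SERPINI1 at 196 CPM on 13, where ACP5 and UABP-2 stood at 2.11% to 2.78% of their epithelial level. The 4755 EIS cells outside every gate held 270265 of the 596166 TIMP2 UMIs of that library.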
